A study of Sus scrofa with 24 samples.

Results

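The genes described here encode enzymes that build sugar chains, among them those of epithelial surfaces. They were read in tissue of the pig utero-tubal junction (UTJ), the narrow passage between uterus and oviduct where boar sperm are stored before ovulation. They were taken by symbol: the ALG enzymes with DPAGT1 and MPI, the MGAT branching enzymes, the GALNT, C1GALT1 and GCNT enzymes of O-glycans, the B4GALT, B3GALT and B3GNT enzymes that lengthen chains, the FUT fucosyltransferases, and the ST3GAL, ST6GAL, ST6GALNAC and ST8SIA sialyltransferases. A gene was a member where a probe set of the array carried its symbol alone, and where several did, the brightest on average was taken. Of the 12365 genes with a symbol of their own on the array, 71 were members, on 73 of the 27558 probe sets. MPI and GCNT3 each had 2 probe sets, and these held identical values. MPI is no transferase itself, since it interconverts sugar phosphates and so feeds the mannose supply. ST6GAL1, ALG3, ALG9, ALG13, MGAT3, MGAT5, FUT3, FUT9, GCNT1, GCNT2, B4GALT2, B4GALT6, ST3GAL2 and ST3GAL3 were not analysed here, because no probe set carried any of these symbols alone.

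The samples were 24 gene arrays of UTJ tissue from Swedish Landrace sows, 8 labelled control, 8 labelled mated and 8 labelled SP-infused. Mated sows had received boar semen by natural mating, SP-infused sows had received 50 ml of sperm-free seminal plasma (SP), and control sows had received 50 ml of Beltsville Thawing Solution, the sperm extender used as a sham fluid, with tissue taken 24 h later in every group. The methods describe 4 sows per group, whose UTJ was taken from each side, and in another place call the control females neither mated nor inseminated. With 8 arrays a group some arrays must share a sow. Since the labels do not tie arrays to sows, arrays were treated as separate samples, which makes every p-value too small, and each direction rests on the label of the array.

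N-glycans are assembled on the lipid dolichol in the endoplasmic reticulum and transferred whole to proteins by the oligosaccharyltransferase. They are then trimmed, and they are branched in the Golgi. O-glycans start with a single sugar placed by a GALNT enzyme and grow by core, extension and capping steps, of which fucose and sialic acid are the last. In the pig oviduct, glycans of the epithelial surface bind sperm, among them sulfated Lewis X and branched glycans that end in 6-linked sialic acid.

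The array medians lay between 5.75 and 5.99 on the log2 scale and replicates of a group correlated at 0.942 or more over all probe sets. Control replicate 1 stood apart, with the smallest spread of values of the 24 arrays (SD 1.91, against 2.04 to 2.14 in the others). It gave the lowest or the highest value of all 24 arrays for 29 of the 71 members (40.8%) and for 37.7% of all genes. Of 12 epithelial markers 8 were measured, none with a mean below 5, and their mean level per array spanned 7.47 to 9.45 among controls, 6.90 to 9.30 after mating and 7.43 to 9.41 after SP. Smooth muscle markers (6 of 10 measured, arrays from 10.16 to 11.56) and stromal markers (8 of 10, 10.33 to 11.09) were present in every group, so the values are those of a whole tissue wall, in which fewer cells of a type and less RNA per cell cannot be told apart. Endothelial markers leaned higher, with 7 of 8 measured above the controls in both comparisons and 3 of them, CLDN5, PECAM1 and TEK, at an unadjusted p under 0.05 in mated arrays (differences of 0.33, 0.41 and 0.42). Their mean level per array spanned 6.87 to 7.51 among controls, 7.09 to 7.55 after mating and 7.11 to 7.52 after SP. Markers of ciliated epithelium leaned lower, with 8 of 9 below the controls in both comparisons (6.62 to 7.80 among controls, 6.23 to 7.76 after mating and 6.49 to 7.56 after SP). Their median difference was -0.28 in mated and -0.05 in SP-infused arrays. Of 6 smooth muscle markers 3 lay above the controls in mated and 0 in SP-infused arrays (medians -0.03 and -0.14). Of 10 leukocyte markers these counts were 4 and 2 (medians -0.03 and -0.10), and of 8 stromal markers 7 and 4. Over all genes 41.5% and 42.3% lay above the controls. The part of these marker shifts in the differences below was not tested. Of 6 sperm and testis markers measured, 5 had a mean below 5.

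No member passed an adjusted p of 0.05 in any of the 3 comparisons (limma, Benjamini-Hochberg adjustment over all probe sets), and neither did any of the 12365 genes (0%). At an unadjusted p under 0.05, 8 of the 71 members differed between mated and control arrays. DPAGT1, FUT11, GALNT1 and MPI were the 4 higher ones (5.63% of the members, beside 2.92% of all genes), and ALG1, FUT2, GALNT17 and MGAT5B the 4 lower ones (5.63%, beside 7.31% of all genes). In SP-infused against control arrays there were also 8, of which ALG5, B4GALT3, DPAGT1 and MPI were higher (5.63%, beside 1.51% of all genes) and GALNT8, MGAT5B, ST3GAL6 and ST8SIA2 lower (5.63%, beside 3.02%). Between mated and SP-infused arrays only ST3GAL6 had such a p, and it was higher after mating (1.41%, beside 1.54% of all genes higher and 1.77% lower). For a single gene the p given below is that of a two-sided exact permutation test over the 16 arrays of a comparison (12870 splits, run for 89 genes in 3 comparisons), beside the adjusted p of limma. By that test 8, 6 and 1 members were under 0.05 in these comparisons, where B3GNT3 came in (exact p = 0.0432, mated against control) and FUT2, ALG5 and the SP-infused difference of MGAT5B fell out. Both comparisons with control use the same 8 control arrays, so a value common to them is not a second observation. Making the array medians equal changed the split of the mated comparison from 4 higher and 4 lower to 9 higher and 2 lower, as it did over all genes, of which 5.94% were then higher and 3.45% lower.

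**Figure D1:**
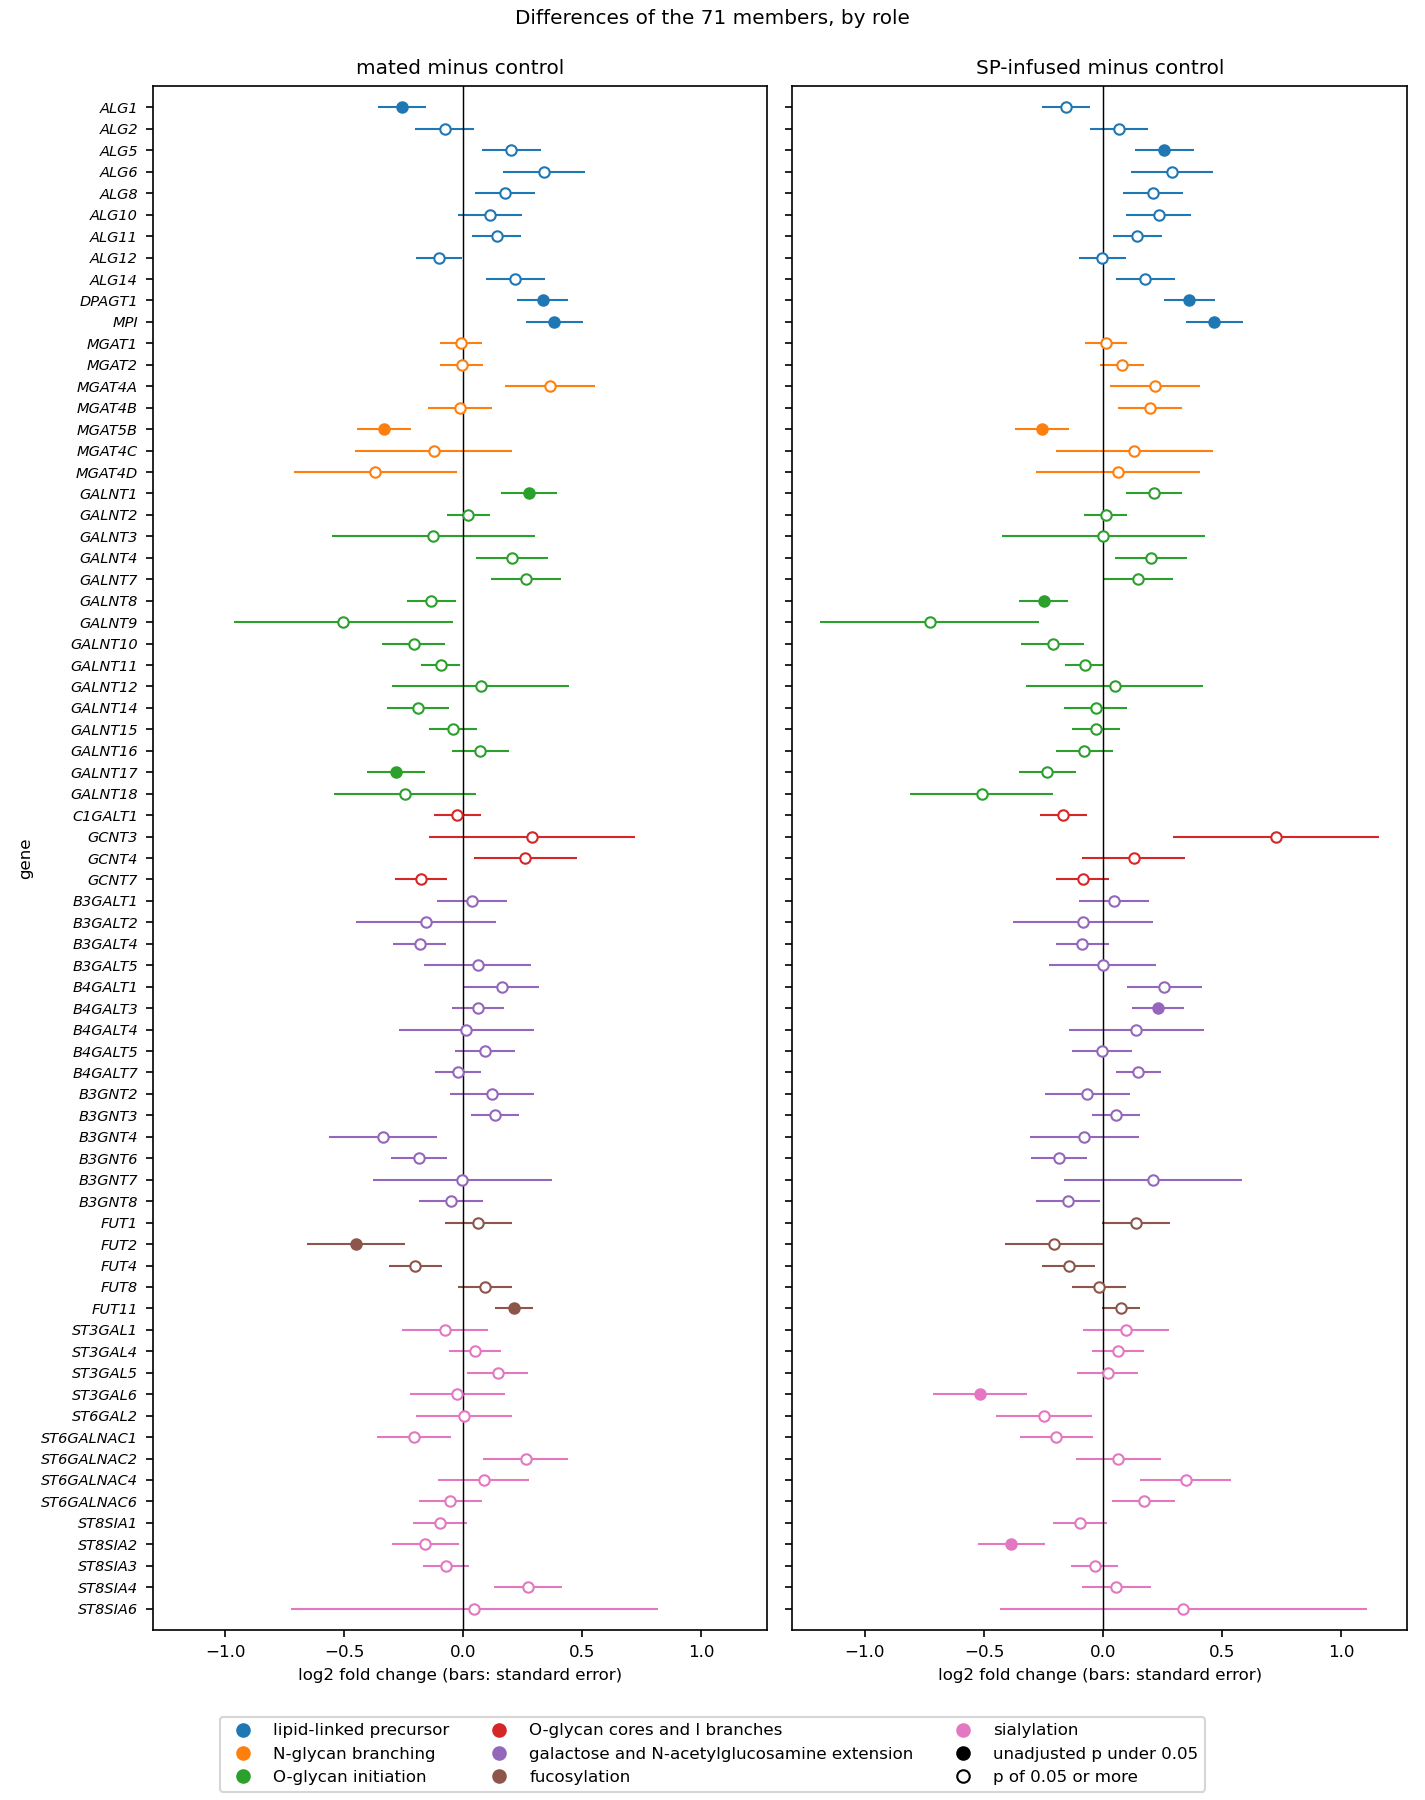
Log2 fold change of each of the 71 members, mated minus control at left and SP-infused minus control at right, with bars of 1 standard error, coloured by role; filled points have an unadjusted p under 0.05. The lipid-linked precursor genes lie mostly to the right of 0 in both panels (8 and 9 of 11), and the widest bars belong to ST8SIA6, GALNT9, GCNT3 and GALNT3.

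The precursor enzymes, which assemble the N-glycan on dolichol, had the largest median difference from control of the 7 role groups in both comparisons. Of 11 members 8 had a mean above that of the controls in mated and 9 in SP-infused arrays, with median log2 fold changes of 0.17 and 0.21, beside -0.04 and -0.03 over all genes, of which 41.5% and 42.3% lay above the controls. Without control replicate 1 the precursor medians were 0.12 and 0.15, and 8 and 10 of the 11 lay above 0. All 11 had a mean log2 value of 5 or more. Over all genes at that level, with all arrays, the medians were -0.01 for mated and -0.0004 for SP-infused arrays, and 52.5% and 50.1% lay below the controls. For mated arrays the median of all genes was 0.02 at a level of 7 to 8 and 0.04 at 8 to 9. Averaged over these 11 genes, control replicates 1 and 8 were the lowest arrays, at -0.40 and -0.33 relative to the mean of all arrays.

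MPI interconverts fructose 6-phosphate and mannose 6-phosphate and so feeds the mannose supply. Its log2 values ran from 6.56 (median 7.14) to 7.46 in control, from 7.24 (median 7.47) to 7.68 in mated and from 7.30 (median 7.52) to 7.93 in SP-infused arrays. All mated and all SP-infused arrays lay above the control median, and 4 mated and 6 SP-infused arrays lay above every control, while the lower ones overlapped with controls 5 to 8. The control arrays themselves split, with replicates 1 to 4 between 6.56 and 7.04 and replicates 5 to 8 between 7.24 and 7.46. The log2 fold change was 0.38 ± 0.12 (SE) for mated (exact p = 0.0101, adjusted p = 0.337) and 0.47 ± 0.12 for SP-infused arrays (exact p = 0.00233, adjusted p = 0.891). Mated and SP-infused arrays differed by -0.08 with a 95% interval of -0.33 to 0.16.

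DPAGT1 places the first sugar phosphate on dolichol and is the step that tunicamycin blocks. Control arrays held log2 values from 7.70 (median 7.97) to 8.30, mated arrays from 7.99 (median 8.27) to 8.62 and SP-infused arrays from 8.04 (median 8.24) to 8.79. Again every mated and SP-infused array exceeded the control median, with 4 and 3 of them above all controls, and the groups overlapped. The log2 fold changes were 0.33 ± 0.11 (SE) for mated (exact p = 0.00466, adjusted p = 0.343) and 0.36 ± 0.11 for SP-infused arrays (exact p = 0.0028, adjusted p = 0.891). DPAGT1 and MPI kept an unadjusted p under 0.05 in all 16 fits that left out 1 array, and under all 8 other settings, of both comparisons with control. Fits without 1 array, here and below, keep other arrays of that sow, so they cannot show whether a difference rests on 1 sow. The interval of the DPAGT1 difference between mated and SP-infused arrays was -0.25 to 0.19.

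Among the other precursor genes, ALG5, which charges dolichol with glucose, had log2 values from 6.68 (median 7.50) to 7.95 in control and from 7.40 (median 7.76) to 7.99 in SP-infused arrays. Control replicate 1 was the low array, and the remaining controls overlapped with the SP-infused ones. The difference of 0.26 ± 0.12 (exact p = 0.0758, adjusted p = 0.891) was 0.15 without control replicate 1. In limma it lost an unadjusted p under 0.05 on removal of any one of control replicates 1, 3, 6 and 8 or of SP-infused replicates 1, 3, 5, 6, 7 and 8, with differences from 0.15 to 0.33 when 1 array was left out. It also lost it in a fit of the 16 arrays alone, with array weights and with the replicate number as a block. ALG1, which adds the first mannose, went the other way in mated arrays, with log2 values from 5.53 (median 5.75) to 6.36 in control and from 5.33 (median 5.55) to 5.79 in mated arrays. One mated array exceeded the control median, and the difference was -0.26 ± 0.10 (exact p = 0.0253, adjusted p = 0.37), or -0.18 without control replicate 1, where the limma p was still under 0.05. ALG2, which adds the following mannoses, and ALG12, another mannosyltransferase, differed by -0.15 ± 0.12 (exact p = 0.216) and -0.10 ± 0.10 (exact p = 0.241) between mated and SP-infused arrays. ALG6, ALG8 and ALG10, which add the glucoses that end the precursor, ALG11, a further mannosyltransferase, and ALG14, the membrane partner of ALG13, had control means from 7.02 to 7.93, and in each of these genes the mated and the SP-infused mean were both above the control mean.

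**Figure D2:**
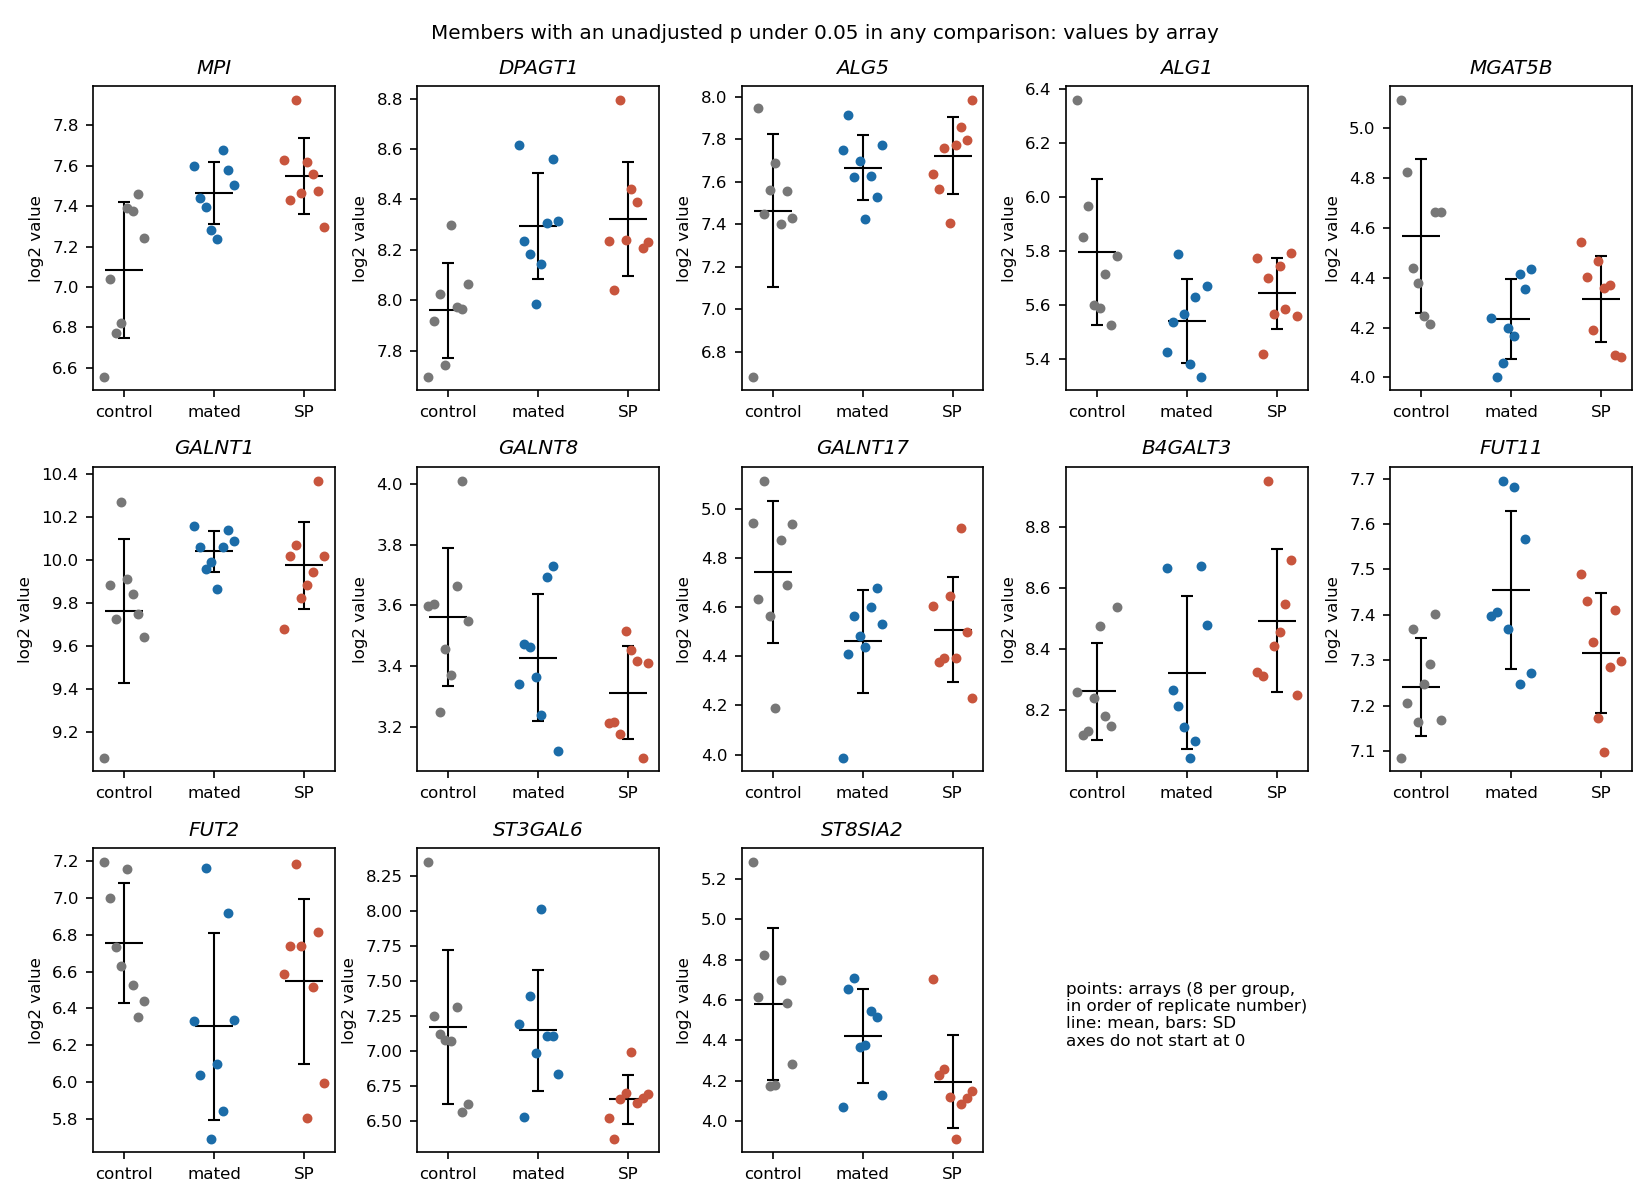
Log2 values by array for the 13 members with an unadjusted p under 0.05 in any comparison, with 8 arrays a group in order of replicate number, the mean as a line and the SD as bars; SP stands for SP-infused. MPI and DPAGT1 sit above the control median in all 16 mated and SP-infused arrays, and the first control point is at the end of its group in 10 of the 13 panels.

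In 10 of these 13 genes control replicate 1 was the lowest or the highest control, and in all 10 on the side that widened the difference. The exceptions were B4GALT3, GALNT17 and GALNT8.

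The branching enzymes decide how many antennae an N-glycan carries. MGAT1 and MGAT2, which start the first antennae, held steady levels, with group means from 8.15 to 8.17 for MGAT1 and from 7.99 to 8.08 for MGAT2. MGAT5B, a 6-branching enzyme known mainly from the brain, ran from 4.22 (median 4.55) to 5.12 in control, from 4.00 (median 4.22) to 4.44 in mated and from 4.08 (median 4.37) to 4.54 in SP-infused arrays. No mated or SP-infused array exceeded the control median, although the groups overlapped in the lower control arrays. The log2 fold changes were -0.33 ± 0.11 for mated (exact p = 0.0134, adjusted p = 0.349) and -0.26 ± 0.11 for SP-infused arrays (exact p = 0.0577, adjusted p = 0.891). The limma p of the mated difference was under 0.05 in all 16 fits that left out 1 array. That of the SP-infused difference was 0.05 or more without any one of control replicates 1, 2, 7 and 8 or SP-infused replicates 3, 7 and 8 (differences from -0.31 to -0.18). The same held in a fit of the 16 arrays alone, after cyclic loess and with array weights. MGAT4A, which opens a 4-linked branch, had a median of 6.95 in control, 7.23 in mated and 7.16 in SP-infused arrays, and its difference of 0.36 ± 0.19 in mated arrays did not pass (exact p = 0.0744), although all 8 mated arrays lay above the control median. Its relative MGAT4B differed by 0.20 ± 0.13 between SP-infused and control arrays (exact p = 0.149) and by -0.21 ± 0.13 between mated and SP-infused arrays (exact p = 0.158). MGAT4D, which in mouse testis inhibits MGAT1, spread from 2.95 to 5.48 over the 24 arrays and differed by -0.43 ± 0.34 between mated and SP-infused arrays (exact p = 0.239).

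The GALNT enzymes start mucin-type O-glycans. GALNT1, a broadly expressed starter, had values from 9.08 (median 9.80) to 10.27 in control and from 9.87 (median 10.06) to 10.16 in mated arrays. All mated arrays stood above the control median and none above the highest control, and the within-group SD was 0.33 in control against 0.09 in mated arrays. The log2 fold change of 0.28 ± 0.12 (exact p = 0.0228, adjusted p = 0.392) became 0.18 without control replicate 1, where the unadjusted limma p was no longer under 0.05. GALNT17 ran from 4.19 (median 4.78) to 5.11 in control and from 3.99 (median 4.51) to 4.68 in mated arrays, with no mated array above the control median. Its difference was -0.28 ± 0.12 (exact p = 0.0402, adjusted p = 0.396). The limma p was 0.05 or more without any one of control replicates 1, 3 and 8 or mated replicate 1 (differences from -0.36 to -0.22). The same held with array medians made equal and after cyclic loess. In SP-infused arrays GALNT17 differed from control by -0.23 ± 0.12 (exact p = 0.0869). GALNT8 ran from 3.25 (median 3.57) to 4.01 in control and from 3.10 (median 3.31) to 3.52 in SP-infused arrays, again with overlap and with no SP-infused array above the control median. The difference was -0.25 ± 0.10 (exact p = 0.0183, adjusted p = 0.891), and it was -0.19 without control replicate 7 and -0.18 after cyclic loess, where the limma p was 0.05 or more. Between mated and SP-infused arrays the lowest limma p of this family belonged to GALNT16, at 0.15 ± 0.12 (exact p = 0.22), and GALNT14, at -0.16 ± 0.13 (exact p = 0.154). By the exact test GALNT18, at 0.27 (exact p = 0.219), came just before GALNT16. GALNT8, GALNT9, GALNT17 and GALNT18 belong to 1 subfamily by sequence. Over all 15 GALNT genes 6 lay above the controls and 9 below in each of the comparisons with control, with medians of -0.09 for mated and -0.03 for SP-infused arrays. The mated median was -0.02 without control replicate 1, -0.03 with array medians made equal and -0.06 after cyclic loess. The SP-infused median was -0.04 without control replicate 1, 0.0030 with array medians made equal and 0.0048 after cyclic loess.

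Core enzymes shape the O-glycan after its first sugar. C1GALT1, which makes core 1, had values from 7.27 (median 7.40) to 7.65 in control and from 7.01 (median 7.26) to 7.66 in SP-infused arrays, a difference of -0.17 ± 0.10 with an exact p = 0.0821. Mated arrays exceeded SP-infused ones in C1GALT1 by 0.14 ± 0.10 (exact p = 0.197). GCNT3, the mucin-type core 2 and core 4 enzyme, had the largest mean difference of SP-infused from control arrays among these 4 genes, 0.73 ± 0.43 (exact p = 0.142), over an interval of -0.16 to 1.62, and it was 0.49 without control replicate 1. Between mated and SP-infused arrays it differed by -0.44 ± 0.43 (exact p = 0.299). GCNT7 differed by -0.18 ± 0.11 between mated and control arrays (exact p = 0.161), and GCNT4, another core 2 enzyme, by 0.26 ± 0.22 (exact p = 0.384). Without control replicate 1 these differences were -0.09 for GCNT7 and 0.14 for GCNT4.

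The extension enzymes add galactose and N-acetylglucosamine. B4GALT3, one of the makers of N-acetyllactosamine units, had log2 values from 8.12 (median 8.21) to 8.54 in control, from 8.05 (median 8.24) to 8.67 in mated and from 8.25 (median 8.43) to 8.95 in SP-infused arrays. All SP-infused arrays were above the control median and 3 were above all controls. The difference was 0.23 ± 0.11 (exact p = 0.0315, adjusted p = 0.891). The limma p was 0.05 or more without any one of control replicates 1, 2, 3, 4, 6 and 7 or SP-infused replicates 3, 5, 6 and 7 (differences from 0.17 to 0.27). The same held after cyclic loess and with the replicate number as a block. Between mated and SP-infused arrays B4GALT3 differed by -0.17 ± 0.11 (exact p = 0.181). B4GALT1, whose product on mouse sperm has been studied as a binding protein for egg coat sugars, showed 8 of 8 SP-infused arrays above the control median as well, at a difference of 0.26 ± 0.16 (exact p = 0.113), which was 0.17 without control replicate 1. B4GALT7, which builds the linker of proteoglycans, differed by -0.17 ± 0.10 between mated and SP-infused arrays (exact p = 0.11). B3GNT6, the core 3 enzyme, differed by -0.19 ± 0.12 in mated arrays (exact p = 0.074), and B3GALT4, a ganglioside enzyme, by -0.18 ± 0.11 (exact p = 0.172).

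Fucose is added at chain ends by FUT1, FUT2 and FUT4 and at the N-glycan core by FUT8. FUT2, the secretor enzyme that makes the H antigen in secretions, ran from 6.36 (median 6.68) to 7.20 in control, from 5.69 (median 6.21) to 7.16 in mated and from 5.80 (median 6.66) to 7.18 in SP-infused arrays. Only 2 mated arrays exceeded the control median, replicates 3 and 7 at 7.16 and 6.92, and the ranges overlapped widely. The mated difference was -0.45 ± 0.21 (exact p = 0.0541, unadjusted limma p = 0.0374, adjusted p = 0.414). The limma p was 0.05 or more without any one of control replicates 1, 2 and 5 or mated replicates 2, 4, 5 and 6 (differences from -0.575 to -0.365). The same held with array medians made equal. The epithelial marker EPCAM also had a lower mean in mated arrays (a difference of -0.41, exact p = 0.0808, unadjusted limma p = 0.0429), and 7 of the 8 epithelial markers had a mean below the controls. OVGP1 went the other way, at a difference of 1.57. The mean level of the 8 markers was 8.36 in control and 8.36 in mated arrays. The part of epithelial content in the FUT2 difference was not tested. FUT1, the neighbouring H enzyme with 3 genes between the pair in the pig assembly, had group means of 6.39 in control, 6.45 in mated and 6.52 in SP-infused arrays. FUT11 ran from 7.09 (median 7.23) to 7.40 in control and from 7.25 (median 7.40) to 7.70 in mated arrays, where 4 arrays were above all controls. FUT11 had the smallest within-group spread of the members (SD 0.14), and its log2 fold change was 0.21 ± 0.08 (exact p = 0.0107, adjusted p = 0.363). Its limma p was under 0.05 in all 16 fits that left out 1 array. Mated arrays exceeded SP-infused ones in FUT11 by 0.14 ± 0.08 (exact p = 0.0945), and FUT2 differed by -0.25 ± 0.21 between them (exact p = 0.318). Of the SP-infused differences from control, the 2 lowest limma p of this group belonged to FUT4 and FUT2. FUT4, which makes Lewis X structures, was at -0.14 ± 0.11 (exact p = 0.226), or -0.06 without control replicate 1. FUT2 was at -0.21 ± 0.21 (exact p = 0.307). By the exact test FUT11 (exact p = 0.234) and FUT1 (exact p = 0.247) came before FUT2.

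Sialyltransferases cap the chains. ST3GAL6, which places 3-linked sialic acid on lactosamine ends, gave the largest difference of SP-infused from control arrays among members with an unadjusted p under 0.05, although without control replicate 1 it was -0.35, against 0.39 for MPI. Its log2 values ran from 6.56 (median 7.10) to 8.35 in control, from 6.53 (median 7.11) to 8.02 in mated and from 6.37 (median 6.66) to 6.99 in SP-infused arrays. Every SP-infused array was below the control median, and the SP-infused SD of 0.18 was smaller than those of 0.55 in control and 0.44 in mated arrays. Controls 7 and 8, at 6.56 and 6.62, lay inside the SP-infused range. The log2 fold change was -0.52 ± 0.20 against control (exact p = 0.011, adjusted p = 0.891). The limma p was under 0.05 in all 16 fits that left out 1 array, but not without control replicates 1 and 3 and mated replicate 3 together, where the difference was -0.33. Mated arrays exceeded SP-infused ones by 0.49 ± 0.20 (exact p = 0.00528, adjusted p = 0.998), with 5 mated arrays above all SP-infused ones. Without mated replicate 5 this difference was 0.37, and the limma p was 0.05 or more.

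ST8SIA2, one of the enzymes of polysialic acid, ran from 4.17 (median 4.60) to 5.29 in control and from 3.91 (median 4.13) to 4.70 in SP-infused arrays. One SP-infused array, replicate 1, lay above the control median. The difference was -0.39 ± 0.14 (exact p = 0.0241, adjusted p = 0.891). The limma p was under 0.05 in all 16 fits that left out 1 array, but not without control replicates 1 and 3 and mated replicate 3 together, where the difference was -0.23. The other polysialyltransferase, ST8SIA4, differed by 0.27 ± 0.14 in mated arrays (exact p = 0.133), with 6 of 8 above the control median, or by 0.18 without control replicate 1. ST6GALNAC2, which puts 6-linked sialic acid on O-glycans, differed by 0.26 ± 0.18 in mated arrays (exact p = 0.22), and ST6GALNAC6, a ganglioside enzyme, by -0.22 ± 0.13 between mated and SP-infused arrays (exact p = 0.0861). Of the enzymes that attach 6-linked sialic acid to lactosamine only ST6GAL2 was measured, with group means of 5.31 in control, 5.32 in mated and 5.06 in SP-infused arrays.

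The signal level of a probe set moved with the sign of its difference. Of 14 members with a mean log2 value below 5, 11 were below the controls in mated arrays and 11 in SP-infused arrays (78.6% in each), beside 74.4% and 77.7% of the 3397 genes at that level. MGAT5B, GALNT17, GALNT8 and ST8SIA2 are among these 14. Without control replicate 1 the counts were 10 and 8 of 14, beside 64.2% and 64.1% of all such genes. In that array the 14 genes averaged 0.52 above and the other 57 members 0.23 below their means over the 24 arrays. The part of that array in the lower values of dim members was not tested further, and the files give no detection call for a probe set.

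**Figure D3:**
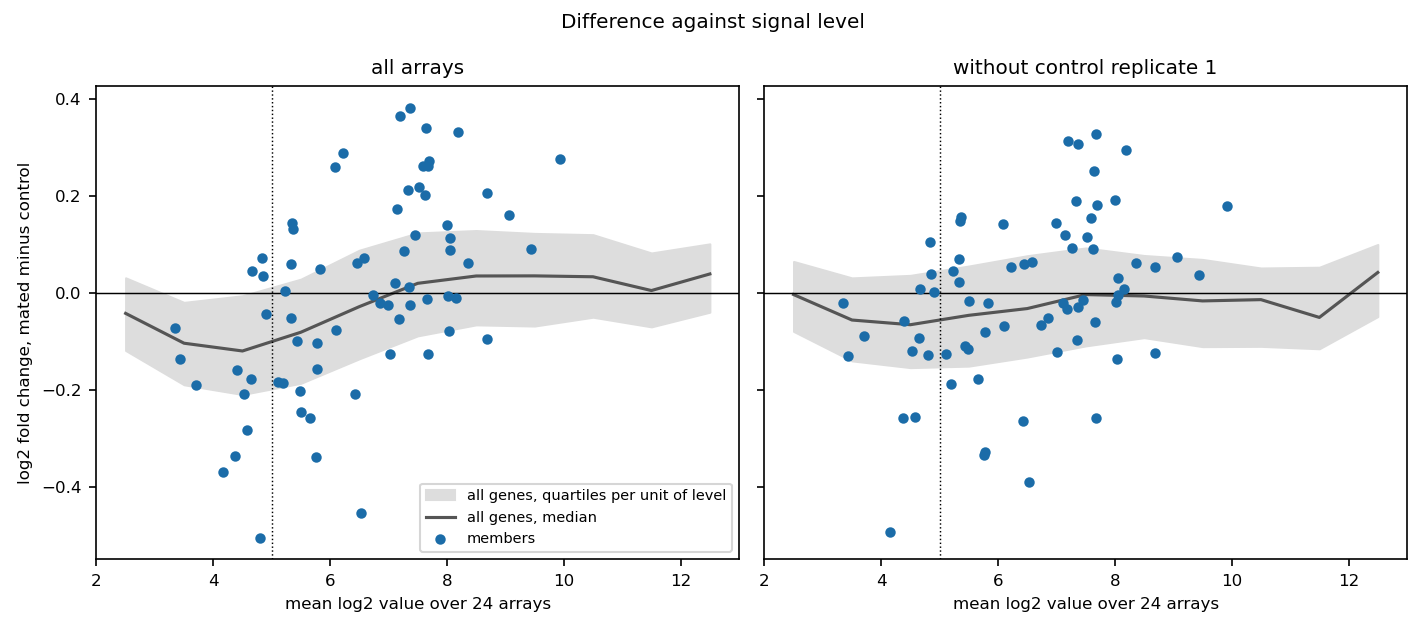
Log2 fold change of mated against control arrays (vertical) against the mean log2 value over 24 arrays (horizontal) for the 71 members, with all arrays at left and without control replicate 1 at right; the line and the grey band are the median and quartiles of all genes per unit of level. Below the dotted line at 5, 11 of 14 members are under 0 at left and 10 of 14 at right.

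Much of the variation among members lay between arrays of the same group. The within-group SD of a member ran from 0.14 to 1.67, with a median of 0.27 beside 0.25 over all genes, and 11 members had an SD of 0.5 or more. None of those 11 had an unadjusted p under 0.05. ST8SIA6, which makes disialic acid ends on O-glycans, was the most variable (SD 1.67). It stood at 8.11 in control replicate 5, 7.61 in SP-infused replicate 5, 7.53 in mated replicate 8, 6.73 in SP-infused replicate 3 and 6.11 in mated replicate 1, against 3.03 in control replicate 6. OVGP1, the secreted oviduct-specific glycoprotein, had 11.88, 11.94 and 11.85 in the first 3 of these arrays.

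GALNT3, GALNT12 and B3GNT7 were low in the same arrays. GALNT3, which protects the hormone FGF23 from cleavage by O-glycosylation, was high in SP-infused replicate 7 (9.07), control replicate 5 (8.98) and mated replicate 8 (8.67), and low in mated replicate 6 (5.61), SP-infused replicate 1 (5.96) and control replicate 7 (6.38). B3GNT7, an extension enzyme of keratan sulfate, and GALNT12 had their 3 lowest values in the same 3 arrays. The mean of the epithelial markers was 9.26, 9.45 and 9.30 in the 3 arrays high in GALNT3 and 6.90, 7.43 and 7.47 in the 3 low ones. The epithelial marker level thus differed along with these genes within every group, and the part of epithelial content in their spread was not tested.

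GALNT9 and GALNT18 showed another pattern. GALNT9 stood at 7.84 in control replicate 1, 7.46 in control replicate 3 and 6.33 in mated replicate 3, and at 5.11 or less in all other arrays. GALNT18 stood at 7.35, 7.20 and 6.67 in the same 3 arrays and at 5.62 or less elsewhere. GCNT3, GCNT4 and B3GALT2, the last a maker of type 1 chains, had their lowest values in control replicates 3 and 1, at 4.16 and 4.23 for GCNT3, 4.60 and 5.14 for GCNT4 and 4.65 and 4.66 for B3GALT2. OVGP1 was at 4.49 and 5.71 in these controls and at 8.83 in mated replicate 3. Leaving out all 3 arrays, an alternative added after these values were seen, gave 6 members at an unadjusted p under 0.05 in the mated comparison (8.45%, beside 7.4% of all genes) and 4 in the SP-infused one (5.63%, beside 3.15%). DPAGT1 and MPI were among both, FUT11, FUT2 and MGAT5B kept theirs in the mated and GALNT8 in the SP-infused comparison, and ST6GALNAC2 (mated, 0.42) and B3GNT2 (SP-infused) came in. ALG1, GALNT1 and GALNT17 lost it in the mated comparison, and ALG5, B4GALT3, MGAT5B, ST3GAL6 and ST8SIA2 in the SP-infused one.

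**Figure D4:**
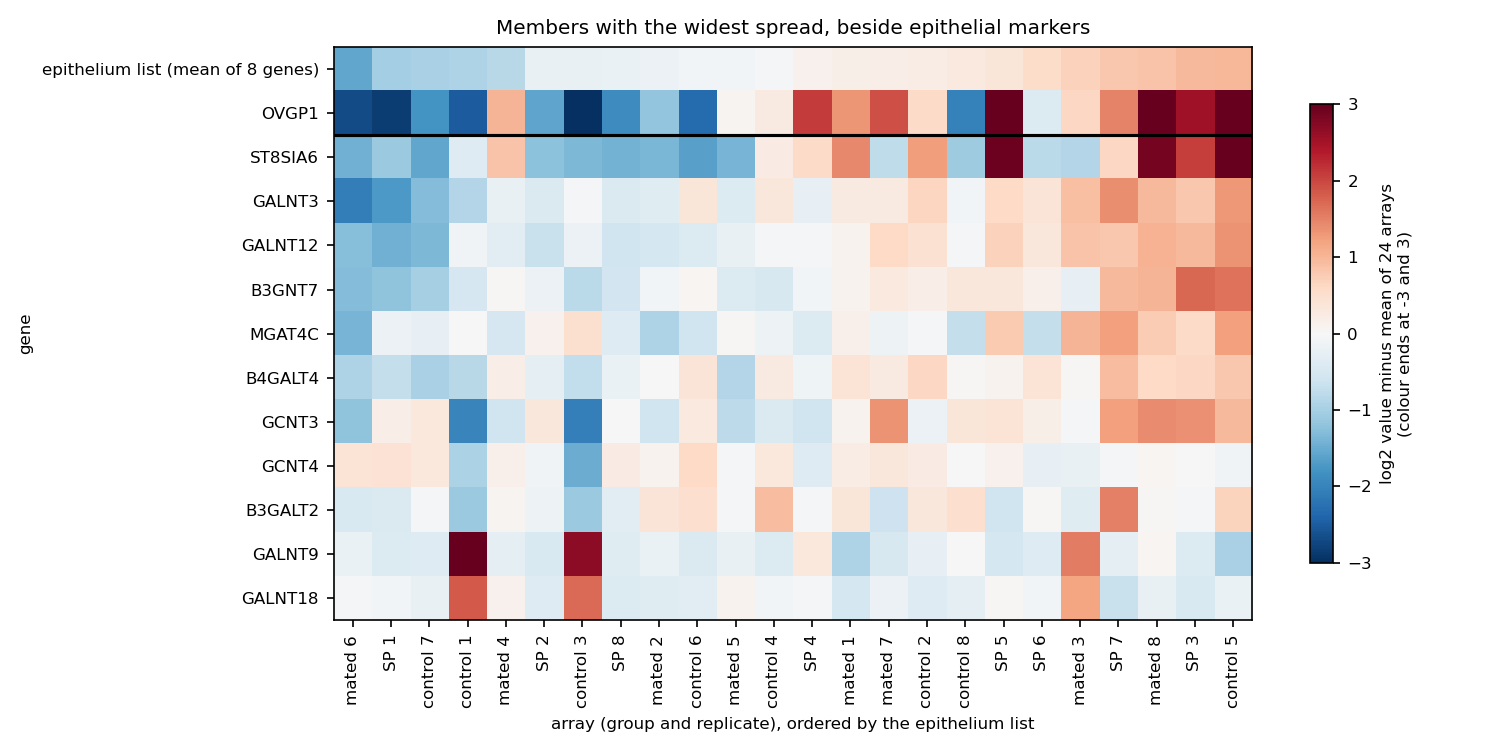
Log2 value minus the mean of 24 arrays (colour) for 11 members with wide spread (rows below the line), beside the epithelial marker mean and OVGP1, with arrays ordered by that marker mean. These are not the 11 members with an SD of 0.5 or more, since GCNT4 (SD 0.46) is shown and MGAT4D (SD 0.74) is not. The columns at right, such as control replicate 5 and mated replicate 8, are high in ST8SIA6, GALNT3, GALNT12 and B3GNT7, and control replicates 1 and 3 and mated replicate 3 are high in GALNT9 and GALNT18.

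The enzymes around the members were read from 10 lists of the same pathways, of which 101 of 160 genes were measured. None passed an adjusted p of 0.05. At an unadjusted p under 0.05 there were 3 higher and 1 lower in mated and 8 higher and 2 lower in SP-infused against control arrays, and 4 higher and 2 lower in mated against SP-infused arrays. Over all genes these shares were 2.92% higher and 7.31% lower, 1.51% and 3.02%, and 1.54% and 1.77%, beside 2.97% and 0.99%, 7.92% and 1.98%, and 3.96% and 1.98% of the 101. Of the 101 genes 55 had a mean above the controls in mated and 73 in SP-infused arrays, beside 41.5% and 42.3% of all genes. These shares were not matched for signal level. The oligosaccharyltransferase, which moves the finished precursor onto proteins, held 4 of the 8, and 8 of its 9 measured subunits lay above the controls in SP-infused arrays (median 0.24). TMEM258 differed by 0.44 ± 0.17 (exact p = 0.0176, adjusted p = 0.891), DDOST by 0.39 ± 0.17 (exact p = 0.0326) and DAD1 by 0.24 ± 0.11 (exact p = 0.025). TMEM258 kept an unadjusted limma p under 0.05 in all 16 fits that left out 1 array. It lost this without control replicates 1 and 3 and mated replicate 3 together, where the difference was 0.23. DDOST lost a limma p under 0.05 without any one of control replicate 1 (0.23) or SP-infused replicates 3 and 5. DAD1 lost it without any one of control replicates 1, 7 and 8 or SP-infused replicates 3, 5, 6, 7 and 8 (differences from 0.21 to 0.29). Without control replicate 1 the median was 0.09 and 2 subunits, KRTCAP2 and TMEM258, had an unadjusted p under 0.05. Without control replicates 1 and 3 and mated replicate 3 the median was 0.05, 5 of the 9 lay above the controls, and only KRTCAP2 had such a p. In mated arrays 5 of the 9 were above the controls, with a median of 0.04, and 3 of 9 without control replicate 1, with a median of -0.03.

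DHDDS, which makes the polyprenyl chain of dolichol, differed by 0.23 ± 0.08 in SP-infused arrays (exact p = 0.00264, adjusted p = 0.891), where all 8 genes of dolichol synthesis and its sugar donors lay above the controls (median 0.12), and 7 without control replicate 1. The limma p of DHDDS stayed under 0.05 in all 16 fits that left out 1 array. Of 7 nucleotide sugar transporters 6 lay above the controls in each comparison, with SLC35A5 at 0.25 ± 0.11 in mated arrays (exact p = 0.05) and with SLC35C1, the GDP-fucose transporter, at 0.39 ± 0.18 (exact p = 0.0432) and SLC35B4 at 0.22 ± 0.10 (exact p = 0.0614) in SP-infused arrays. Each of these 3 lost an unadjusted limma p under 0.05 on removal of single arrays, SLC35A5 of control replicates 1, 3 and 8 or mated replicates 4 and 7 (0.17 to 0.31), SLC35C1 of control replicates 3, 4, 6 and 7 or SP-infused replicates 3, 5, 6 and 7 (0.29 to 0.48), and SLC35B4 of control replicates 1, 3, 4, 6 and 8 or SP-infused replicates 1, 4, 5, 6 and 8 (0.18 to 0.27). None of 22 genes of nucleotide sugar synthesis had an unadjusted p under 0.05 in any comparison. Of the trimming enzymes and lectin chaperones, 13 of 16 lay above the controls in mated and 14 in SP-infused arrays, and 5 and 12 without control replicate 1. UGGT2, a sensor of misfolded glycoproteins, differed by 0.60 ± 0.22 in mated arrays (exact p = 0.0476, adjusted p = 0.363) and by 0.43 to 0.69 when 1 array was left out. MOGS, which removes the first glucose in trimming, was lower in mated than in SP-infused arrays by a log2 difference of -0.25 ± 0.11 (exact p = 0.0361). Its limma p was 0.05 or more without any one of mated replicates 5 and 6 or SP-infused replicates 6 and 8 (-0.29 to -0.18).

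UGCG, the first enzyme of most glycolipids, differed by -0.37 ± 0.13 in SP-infused arrays (exact p = 0.019, adjusted p = 0.891), and mated arrays exceeded SP-infused ones by 0.32 ± 0.13 (exact p = 0.0073). CHST3, a chondroitin sulfotransferase, differed by -0.36 ± 0.15 in SP-infused arrays (exact p = 0.0258) and by 0.32 ± 0.15 between mated and SP-infused arrays (exact p = 0.0382). The first of these was lost without any one of control replicates 1, 2 and 4 or SP-infused replicate 2 (-0.43 to -0.31), and the second without any one of mated replicates 1, 3, 4 and 6 or SP-infused replicates 2, 3, 6 and 7 (0.23 to 0.37). GAL3ST4, which sulfates galactose on O-glycans, was at 0.31 ± 0.14 for mated against SP-infused arrays (exact p = 0.078), and this was lost without any one of mated replicates 1, 4 and 7 or SP-infused replicates 2, 6, 7 and 8 (0.26 to 0.41).

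Among enzymes that remove sugars, the sialidase NEU2 was lower in mated arrays, by a log2 difference of -0.28 ± 0.11 from control (exact p = 0.00699) and of -0.27 ± 0.11 from SP-infused arrays (exact p = 0.0138). Its group means were 4.28 in control, 4.01 in mated and 4.28 in SP-infused arrays. Of all genes with a mean below 5, 74.4% were lower in mated than in control and 53.1% lower in mated than in SP-infused arrays. SIAE, which removes acetyl groups from sialic acid, differed by 0.38 ± 0.18 in mated arrays (exact p = 0.0563), and the sialidase NEU1 by 0.22 ± 0.10 in SP-infused arrays (exact p = 0.0389). SIAE lost its unadjusted limma p under 0.05 without any one of control replicates 1, 2, 4, 6 and 8 or mated replicates 3, 5, 7 and 8 (0.31 to 0.46), and NEU1 without any one of control replicates 1, 6 and 8 or SP-infused replicates 1, 3, 5 and 7 (0.17 to 0.27). MANBA, the lysosomal beta-mannosidase, was higher by 0.62 ± 0.20 in mated than in SP-infused arrays (exact p = 0.0112, adjusted p = 0.998). UGCG, MANBA and NEU2 kept an unadjusted limma p under 0.05 in all 16 fits that left out 1 array of each of these comparisons. The NEU2 difference of mated from control arrays was -0.20 without control replicate 1. Without control replicates 1 and 3 and mated replicate 3 together it was -0.21, and the limma p was 0.05 or more. No mucin, galectin or siglec measured had an unadjusted p under 0.05.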

How the data were processed

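The authors hybridised UTJ RNA to 24 porcine gene arrays and, per the labels and the methods, made log2 values by RMA (oligo) before testing in limma. The versions of oligo and limma that the authors used and the genome build of the array design are not given in the sources used here. The deposited log2 values, 1 per probe set and array, were used as they are, and the authors' comparison tables and the chicken arrays were not used. Arrays have no read depth, so the number of arrays limits the precision.

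Of the 27558 probe sets 13327 carry 1 gene symbol in the platform annotation, 357 several and 13874 none, and 1239 share all 24 values with another probe set. Of the 71 members 68 were found in the RefSeq gene table of Sscrofa11.1, and 0 had another symbol there. Group means of the 24 arrays were estimated in limma 3.58.1 (R 4.3.3) with empirical Bayes moderation, and two-sided p-values of each of 3 comparisons were adjusted (Benjamini-Hochberg) across every probe set. Exact permutation tests of single genes, whose smallest possible p is 0.000155, were added beside the fit. The fit was tested on simulated data in which all arrays were independent, so arrays that share a sow were not covered. Differences are named for members with an unadjusted p under 0.05, for the 2 lowest limma p of each role group in each comparison and for MPI and DPAGT1. Of each pathway list they are named for at most 3 genes with an unadjusted p under 0.05 per comparison. Values by array of the widely spread members were picked after they were seen. The members and gene lists were chosen with earlier results of these data known. Alternatives were fits of 16 arrays, a filter at a mean of 5, equal array medians, cyclic loess, a trended robust prior, array weights, a block by replicate number, the mean of probe sets, and leaving out each array.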

Additional observations from a re-analysis of the deposited data

Results flagged for a closer look

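For the 13 members with an unadjusted p under 0.05, each group of 8 arrays was searched for a single array far from the rest, and 4 of 39 groups held one, where chance gives about 1 in 20. ALG5 was at 6.683 in control replicate 1, below the nearest control at 7.401. ST3GAL6 was at 8.351 in the same array, above the nearest control at 7.311. GALNT17 was at 3.988 in mated replicate 1, below the nearest mated array at 4.408. ST8SIA2 was at 4.703 in SP-infused replicate 1, above the nearest SP-infused array at 4.255.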

How the results depend on the processing

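No setting gave a member an adjusted p under 0.05. The count of members at an unadjusted p under 0.05 was 8 for mated against control and lay between 6 and 11 under the other settings of all arrays or probe sets. For SP-infused against control it was 8, and 5 with probe sets of a mean of 5 or more, 5 after cyclic loess and 4 without control replicates 1 and 3 and mated replicate 3, a setting chosen after seeing the data. For mated against SP-infused it was 1, and 2 after cyclic loess. The cause of these shifts was not tested, except that 14 members are no longer tested under the filter. Leaving out 1 array at a time gave 5 to 12, 5 to 11 and 1 to 3 members in these comparisons. The count was 5 without control replicate 1 for mated, 5 without control replicate 1, control replicate 7 or SP-infused replicate 3 for SP-infused, and 3 without mated replicate 8 for mated against SP-infused arrays. The share of all genes moved too. Without control replicate 1, 4.23% of the members were higher and 2.82% lower in mated arrays, beside 2.53% and 4.93% of all genes. In SP-infused arrays these shares were 2.82% and 4.23%, beside 1.02% and 1.8% of all genes. Of the single differences of named members under all alternatives, 1016 kept direction and side of the threshold, 53 lost it, 23 gained it and 2 turned, both for DPAGT1 between mated and SP-infused arrays (0.0153 without mated replicate 4 and 0.039 without SP-infused replicate 3, in a range of -0.0748 to 0.039). Deviations of same-numbered arrays correlated at medians of 0.0958, -0.00818 and -0.045, with 4, 3 and 2 of 8 pairs over 0.1 and a highest value of 0.502 for control and mated. Since not every pair was over 0.1 and no label ties the numbers to a sow or batch, the numbers were not used to pair arrays. With the replicate number as a block the counts were 9, 6 and 1.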
